A study of Mus musculus with 11 samples.

Results

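The respiratory chain of the inner mitochondrial membrane was described here through the genes of its subunits, chosen by name as the Nduf, Sdh, Uqcr, Cox and Atp5 subunits encoded in the nucleus and the mt-Nd, mt-Cytb, mt-Co and mt-Atp genes of the mitochondrial genome. This choice gave 97 of the 42375 named genes of the count table, 84 of them nuclear and 13 mitochondrial. RNA sequencing had been done on bone marrow derived macrophages of C57BL/6 mice, and every culture had been given a gapmer, an antisense oligonucleotide that directs cleavage of its paired RNA, for 16 hours. The 4 groups were M1 cells given the MERRICAL gapmer (M1 KD, 2 libraries, numbered 5 and 6), M1 cells given the NS gapmer (M1 NS, 3 libraries), M0 cells given the MERRICAL gapmer (M0 KD, 3 libraries) and M0 cells given the NS gapmer (M0 NS, 3 libraries). The libraries of the last 3 groups carry the numbers 1, 2 and 4. MERRICAL is a long noncoding RNA. No gene of the table carries that name, so the knockdown itself was not analysed here, and the sources used here do not name the agent that made the cells M1.

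Electrons from NADH enter the chain at complex I and those from succinate at complex II. They pass through ubiquinone, complex III and cytochrome c to complex IV, which reduces oxygen, and complex V makes ATP from the proton gradient. All 13 proteins of the mitochondrial genome are subunits of complexes I, III, IV and V, so these complexes need both genomes, whereas complex II is nuclear in full. In macrophages the chain is known for its rewiring in inflammatory activation, when succinate oxidation and reverse electron flow through complex I feed the production of reactive oxygen.

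Total counts ran from 30040632 to 43250392 per library, and the 97 genes made up between 1.16% and 2.02% of them. Levels are given as CPM, counts scaled to a common library total with trimmed-mean (TMM) factors, and only CPM per kilobase of exon is used to set one gene beside another. The exon length joins all annotated exons of a gene, so a gene with long alternative exons gets a lower value. No label says whether replicates came from separate cultures. The p-values therefore speak only of how these libraries vary, possibly for technical reasons. Of 12 macrophage markers 11 were in the table, none at 0 throughout, and their summed level lay between 14018 and 18037 CPM in M1 KD, 11617 and 12571 CPM in M1 NS, 19412 and 21436 CPM in M0 KD, and 26712 and 28083 CPM in M0 NS. The 12 neutrophil markers, all detected, summed to between 218 and 229 CPM in M1 KD, 242 and 320.2 CPM in M1 NS, 758 and 828 CPM in M0 KD, and 1347 and 2345 CPM in M0 NS. The 6 dendritic cell markers, all detected, summed to between 131 and 609.7 CPM in M1 KD, 107 and 338 CPM in M1 NS, 6.45 and 12.8 CPM in M0 KD, and 10.4 and 11.03 CPM in M0 NS. The higher M1 sums were largely those of Ccr7, with 347 ± 332 CPM in M1 KD, 229.7 ± 123 CPM in M1 NS, 0.962 ± 0.283 CPM in M0 KD and 1.20 ± 0.359 CPM in M0 NS. In M1 NS against M0 NS 4 of the 6 rose and 2 fell, among these Flt3, from 4.96 ± 0.338 CPM in M0 NS to 0.877 ± 0.454 CPM in M1 NS. T cell, B cell, erythroid and stromal markers summed to at most 63.9 CPM per list and library. The part of these markers in the differences between M1 and M0 cells was not tested. In such bulk libraries, fewer cells of a type and less RNA per cell cannot be told apart.

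Before any comparison, the mitochondrial genes fell into 2 sets by how many reads they had been assigned. The 7 genes mt-Nd1, mt-Nd2, mt-Co1, mt-Nd4, mt-Nd5, mt-Nd6 and mt-Cytb had at least 2525 counts in every library. The other 6, which lie next to each other on the mitochondrial genome (mt-Co2, mt-Atp8, mt-Atp6, mt-Co3, mt-Nd3 and mt-Nd4l), had between 0 and 33 counts in every library. These 6 encode subunits of complexes I, IV and V, and they are transcribed on one strand with mt-Co1 and mt-Nd4. The gene annotation of GRCm38 (GENCODE M21) holds a run of unprocessed pseudogenes on chromosome 1, minus strand, between 24611535 and 24616197, whose transcripts match this stretch at 99% identity or more. Gm28661 covered 99.6% of the mt-Co2 transcript, Gm10925 99.6% of mt-Atp6 and 21.1% of mt-Atp8, Gm28437 99.9% of mt-Co3, Gm28438 99.1% of mt-Nd3 and Gm10222 all but 3 of the 297 bases of mt-Nd4l. Copies also covered 31.3% of mt-Co1 and 63.6% of mt-Nd4, but none at 99% identity or more was found of mt-Nd1, mt-Nd2, mt-Nd5, mt-Nd6 or mt-Cytb. The chromosome 1 copies had themselves been assigned few reads, between 1 and 432 counts per gene and library. The sources used here do not say how reads that fit several places were counted, and its part in these low counts was not tested.

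The mt-Nd3 transcript and its copy Gm28438 show how close the match is, since they differ at 1 of 345 compared bases, written T3C (mt-Nd3 base, position from 1 at the 5′ end of the transcript, Gm28438 base). The first 60 bases of each follow, from the transcripts of that annotation, with the differing base in capitals.
mt-Nd3: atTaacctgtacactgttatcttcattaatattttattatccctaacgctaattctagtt
Gm28438: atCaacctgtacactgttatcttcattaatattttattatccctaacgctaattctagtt
Because of these counts, mt-Nd3 and mt-Atp8 did not pass the filter on low counts, and values of mt-Co2, mt-Atp6, mt-Co3 and mt-Nd4l rest on few reads. Of the nuclear members, 32 shared some stretch at 99% identity with another annotated gene, but only Atp5l2-ps, a pseudogene by name, did so over 50% or more of its transcript. The filter was passed by 89 members, 78 nuclear and 11 mitochondrial. Those left out were Cox7b2, Cox8b, Cox8c, Atp5l-ps1, Atp5l-ps2, Atp5l2-ps, mt-Nd3 and mt-Atp8.

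**Figure D1:**
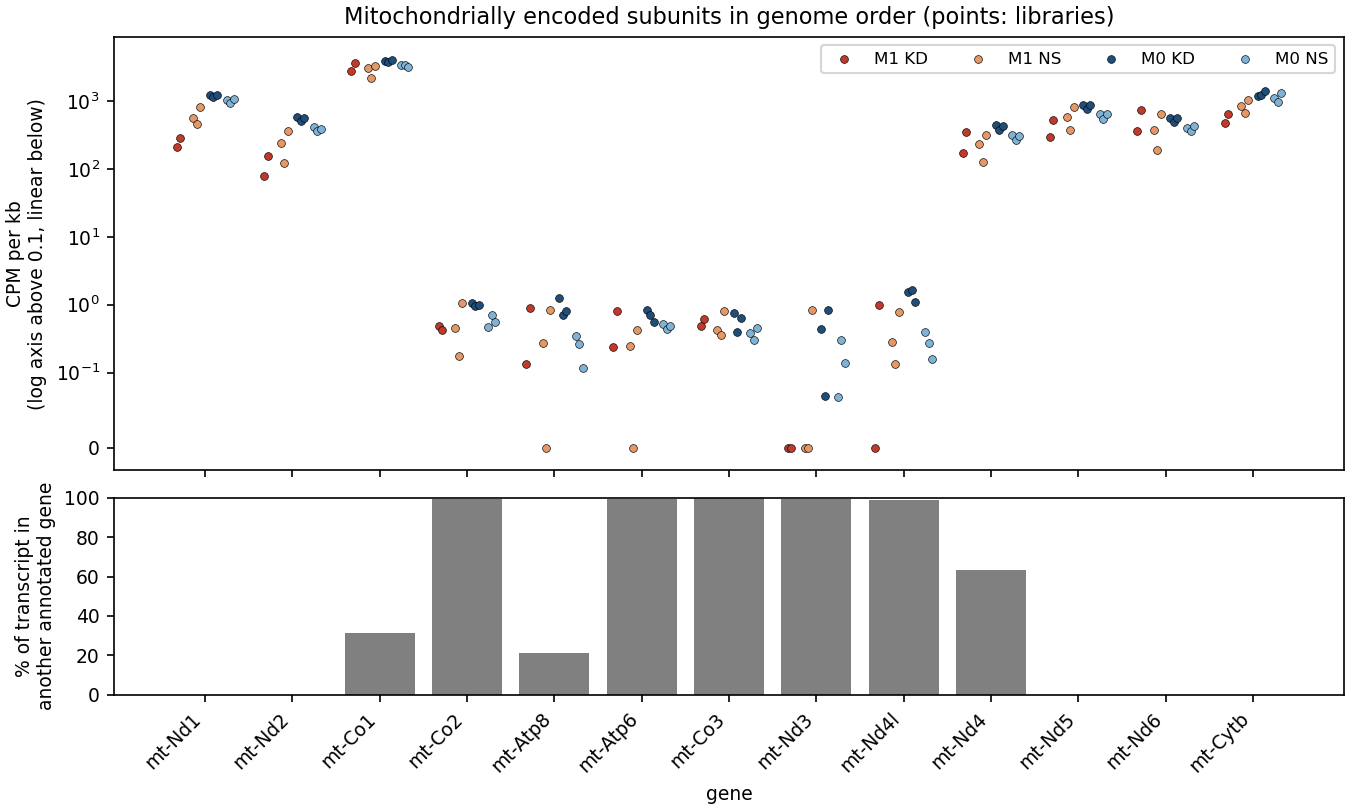
Upper panel: level of the 13 mitochondrially encoded genes in CPM per kilobase for each of the 11 libraries, on an axis that is logarithmic above 0.1 and linear below it. Lower panel: percent of each transcript that another annotated gene holds at 99% identity or more; the 6 adjacent genes from mt-Co2 to mt-Nd4l stand far below the other 7 in all 4 groups.

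By assigned reads per kilobase, mt-Co1, the catalytic core of complex IV, had the highest level of all members in each group. The mitochondrial genes with few counts, described above, cannot be placed in this order. Copies also cover 31.3% of mt-Co1 and 63.6% of mt-Nd4, and the part of this in their levels was not tested. It averaged 3254 ± 616 CPM per kilobase in M1 KD, 2879.5 ± 569 in M1 NS, 3904 ± 126 in M0 KD and 3365 ± 139 in M0 NS (SD, n = 2, 3, 3 and 3). In M0 NS it was followed by mt-Cytb, the cytochrome b of complex III, at 1142 ± 176 and mt-Nd1 at 1035 ± 80.7 CPM per kilobase, a pair within their spread. The highest nuclear members in M0 NS were Cox6a1 at 228 ± 43.7, Cox4i1 at 218 ± 25.8, Cox8a at 149 ± 40.8 and Atp5a1, the alpha subunit of the ATP synthase, at 147 ± 8.30 CPM per kilobase. Cox6a1 and Cox4i1 did not differ beyond their spread, nor did Cox8a and Atp5a1. This nuclear order depends on the exon lengths used. Atp5b, for example, was divided by 4237 bases, whereas its longest annotated transcript has 1916. The order of the mitochondrial genes depended on the group, since in M1 KD mt-Nd6 (549.8 ± 267 CPM per kilobase) stood above mt-Nd1 (252 ± 52.2 CPM per kilobase).

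Complex IV exists with alternative subunits, and these cells carried the common forms. Against Cox4i1, its partner Cox4i2, known from lung, averaged 0.235 ± 0.116 CPM per kilobase in M0 NS. Cox6a2 and Cox7a1, the forms of heart and skeletal muscle, averaged 2.29 ± 0.292 and 2.36 ± 0.224 CPM per kilobase there, against 228 ± 43.7 and 47.5 ± 1.57 CPM per kilobase for Cox6a1 and Cox7a2. Cox6b2, known from testis, averaged 0.182 ± 0.140 and Cox6b1 107 ± 16.0 CPM per kilobase. Cox7b2, Cox8b and Cox8c reached at most 1 count in any library, whereas Cox7b averaged 35.7 ± 7.92 and Cox8a 149 ± 40.8 CPM per kilobase in M0 NS. Of the genes that all encode the c subunit of complex V, in M1 NS Atp5g3 averaged 71.8 ± 16.2, Atp5g2 33.4 ± 6.84 and Atp5g1 10.1 ± 2.05 CPM per kilobase. The joined exon lengths behind these values were 2181, 1675 and 4912 bases, so the distance of Atp5g1 from the others leans on its length.

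By assigned counts, the balance between the genomes set the M1 apart from the M0 libraries, and the M0 KD apart from the M0 NS libraries. The ratio of mitochondrial to nuclear member counts was 0.810 and 1.22 in the M1 KD libraries and 1.18, 0.702 and 1.47 in the M1 NS libraries, so these groups overlapped. It was 2.64, 2.36 and 2.49 in the M0 KD libraries and 1.94, 1.83 and 1.65 in the M0 NS libraries, with every M0 KD library above every M0 NS library and every M1 library below all M0 libraries. Summed nuclear members averaged 7375 ± 335 CPM in M1 KD, 7277 ± 824 CPM in M1 NS, 4656 ± 211 CPM in M0 KD and 5364 ± 479 CPM in M0 NS. These sums depend on the TMM factors. As a share of total counts, nuclear members averaged 0.615 ± 0.0370% in M1 KD and 0.624 ± 0.0596% in M1 NS. That share was 0.544 ± 0.0326% in M0 KD and 0.604 ± 0.0709% in M0 NS, so by it M1 NS and M0 NS overlapped. Summed mitochondrial members averaged 7447 ± 1815 CPM in M1 KD, 7906 ± 2035 CPM in M1 NS, 11612 ± 539.9 CPM in M0 KD and 9658 ± 353 CPM in M0 NS. The M1 groups spread widely, since M1 KD replicate 5 and M1 NS replicate 2 held the lowest mitochondrial sums, 6164 and 5772 CPM. mt-Co1 alone gave between 65.3% and 70.6% of the mitochondrial counts in M1 KD, against 52.3% to 59.9% in M1 NS, 51.4% to 52.8% in M0 KD and 50.7% to 56.8% in M0 NS. No test was made of these ratios or sums, and mt-Co1 dominates the mitochondrial counts. In M0 KD against M0 NS the median log2 fold change of the mitochondrial members was 0.47. It came to 0.11 when a trend in transcript length and GC content was removed.

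**Figure D2:**
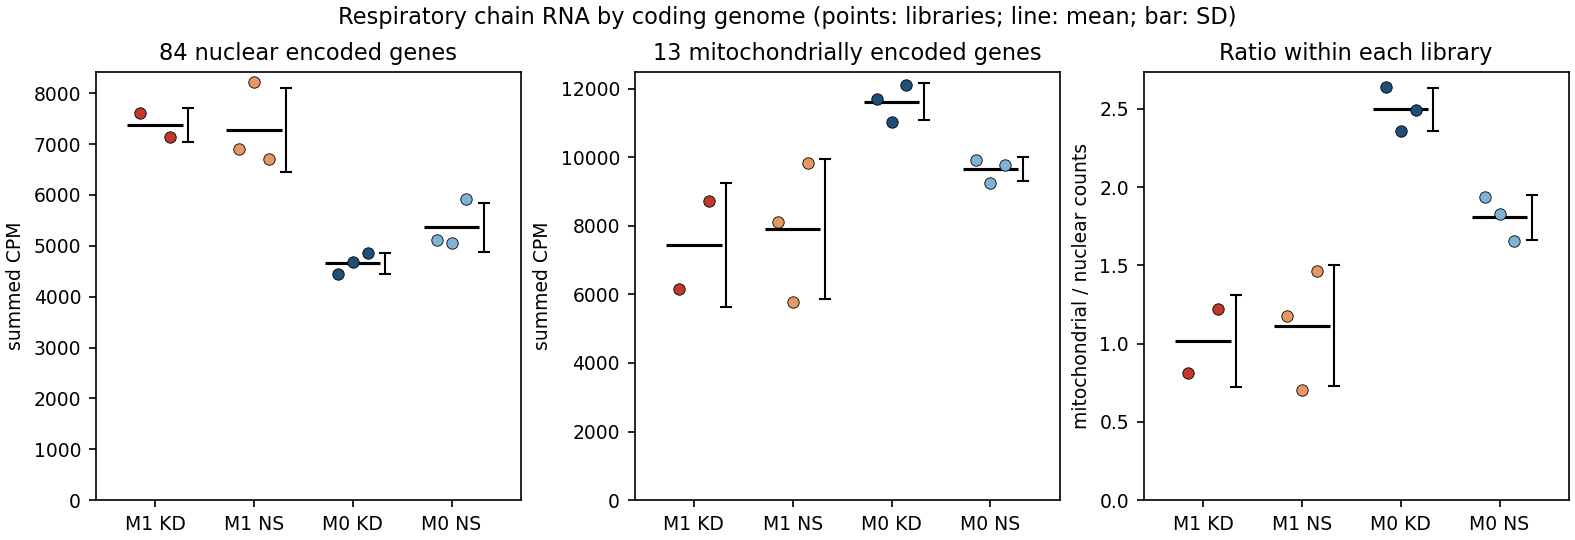
Summed level of the nuclear and of the mitochondrial members in CPM and the ratio of their counts, for each library (points) with the group mean (line) and SD (bar). Nuclear sums, as scaled with TMM factors, are higher in both M1 groups, and the ratio is highest in the 3 M0 KD libraries, between 2.36 and 2.64.

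The first comparison asked how the chain differs between the activation states without knockdown. In M1 NS, 30 of the 89 members tested rose and 4 fell against M0 NS, by edgeR's quasi-likelihood test at a Benjamini-Hochberg adjusted p under 0.05. Of all 15024 genes tested 55.5% were called, 26.9% higher and 28.6% lower, so the members' total of 38.2% is below that share. All 30 that rose are nuclear. The median log2 fold change was 0.29 over the nuclear and -0.22 over the mitochondrial members, against -0.04 over all genes tested. These medians lean on single libraries, the nuclear one at 0.17 without M1 NS replicate 2 and the mitochondrial one at -0.07 without that library, -0.57 without M1 NS replicate 4, and -0.06 and -0.05 without M1 KD replicate 5 or 6, where all 13 mitochondrial members passed the filter in place of 11. The CPM ranges of M1 NS and M0 NS did not overlap for 30 nuclear members that were higher and 9 that were lower of 78, against 61.4% of all genes tested (28.6% higher and 32.8% lower).

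These directions depend on the scaling of libraries. With totals alone and no composition factor, the median of all genes shifted to -0.42, that of the nuclear members to -0.10 and that of the mitochondrial members to -0.61, and 5 members were called higher and 21 lower. With upper-quartile factors 21 were called higher and 11 lower at an all-gene median of -0.16. Relative to all genes, the nuclear members stood 0.33 above the median with TMM factors, 0.33 with upper-quartile factors and 0.32 with totals alone. A scaling factor shifts all genes of a library alike, so this distance could hardly change and is no check on the scaling. Among all called genes the share called higher was 48.5% with TMM factors, 40.9% with upper-quartile factors and 26.7% with totals alone.

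In complex I, with Ndufa4 counted in complex IV instead, 8 of 36 nuclear subunits rose and 2 fell. Ndufs4, an accessory subunit needed for a stable and active complex (chromosome 13, 114287795 to 114388258, minus strand), had 50.8, 49.8 and 39.3 CPM in the M1 NS libraries, against 17.2, 19.2 and 18.9 CPM in the M0 NS libraries. The nearest libraries of the groups were 20.2 CPM apart, and the log2 fold change of Ndufs4 was 1.34 ± 0.13 (SE, adjusted p = 3.11e-06). Of the 7 core subunits, which carry the flavin and the iron-sulfur clusters, 3 rose, with Ndufs7 at 0.76 ± 0.21 (SE, adjusted p = 0.00920). Its M1 NS libraries had 73.1, 118 and 63.0 CPM and its M0 NS libraries 45.5, 43.1 and 61.1 CPM, so that the M1 NS mean rests in part on replicate 2. Ndufb11, an X-linked accessory subunit of the membrane arm, moved the other way, with 20.6, 26.4 and 26.1 CPM in M1 NS and 43.8, 45.1 and 51.9 CPM in M0 NS, and fell by 0.95 on the log2 scale (SE 0.14, adjusted p = 0.000106). Ndufv3, an accessory subunit beside the flavin site, had 25.7, 37.1 and 28.3 CPM in M1 NS and 40.4, 39.0 and 53.3 CPM in M0 NS, with a log2 change of -0.54 ± 0.16 (SE, adjusted p = 0.0114).

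In complex II, 2 of 4 subunits rose. Sdhd, a membrane anchor that helps bind ubiquinone (chromosome 9, 50596357 to 50603812, minus strand), had 141, 158 and 142 CPM in M1 NS and 83.5, 79.4 and 84.9 CPM in M0 NS, with no overlap and a log2 change of 0.83 ± 0.11 (SE, adjusted p = 3.96e-05). The other anchor, Sdhc, rose by 0.33 (SE 0.13, adjusted p = 0.0487), a call lost in 11 of 22 alternatives and a value of -0.066 in another, that with totals alone. The catalytic flavoprotein Sdha averaged 269 ± 36.0 CPM in M1 NS and 252 ± 2.36 CPM in M0 NS, and the iron-sulfur subunit Sdhb 159 ± 12.1 CPM in M1 NS and 131 ± 1.97 CPM in M0 NS, neither past the threshold.

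In complex III, 5 of 8 nuclear subunits rose and none fell. The largest rise was that of the small subunit Uqcr10, with 39.4, 71.2 and 43.6 CPM in M1 NS and 29.9, 28.5 and 38.0 CPM in M0 NS and a log2 change of 0.68 ± 0.20 (SE, adjusted p = 0.0124). The gap between the groups was narrow, 39.4 CPM for the lowest M1 NS library against 38.0 CPM for the highest M0 NS library. Uqcrfs1, the Rieske iron-sulfur protein that takes electrons from ubiquinol, had 62.5, 65.3 and 52.8 CPM in M1 NS and 38.1, 40.3 and 41.9 CPM in M0 NS, at 0.59 ± 0.11 (SE, adjusted p = 0.000917). The partner encoded in the mitochondrion, mt-Cytb, had 979.6, 773 and 1205 CPM in M1 NS and 1278, 1121 and 1521 CPM in M0 NS, groups that overlapped, at -0.41 ± 0.20 (SE, adjusted p = 0.102).

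In complex IV, Ndufa4 included, 8 of 16 nuclear members tested rose and 1 fell. Cox7a2 had 90.6, 90.7 and 98.3 CPM in M1 NS and 43.4, 44.7 and 46.4 CPM in M0 NS, with no overlap, at 1.06 ± 0.11 (SE, adjusted p = 4.40e-06). Cox5a and Cox5b, which sit on the matrix face of the complex, also rose, Cox5a at 0.95 ± 0.11 (SE, adjusted p = 1.56e-05) and Cox5b at 0.75 ± 0.17 (SE, adjusted p = 0.00244). Cox7a2l had 62.2, 57.7 and 81.9 CPM in M1 NS and 98.8, 99.4 and 101 CPM in M0 NS, and fell by 0.57 on the log2 scale (SE 0.14, adjusted p = 0.00421). It thus moved against Cox7a2, to which it is related in sequence.

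In complex V, 7 of 14 nuclear members tested rose, none fell and all 14 log2 fold changes were above 0. Of the 5 subunits of the catalytic F1 head 4 rose. Atp5b, the beta subunit that carries the catalytic site, had 1031, 1091 and 919 CPM in M1 NS and 419, 419 and 452 CPM in M0 NS, with 467 CPM between the nearest libraries and a log2 change of 1.24 ± 0.13 (SE, adjusted p = 6.97e-06). Its partner in the head, Atp5a1, had 676, 732 and 504 CPM in M1 NS and 449, 443 and 490.4 CPM in M0 NS, at 0.47 ± 0.15 (SE, adjusted p = 0.0187), a call lost in 8 of 22 alternatives. Of the c subunit genes, Atp5g3 rose, at 0.72 ± 0.16 (SE, adjusted p = 0.00182), while Atp5g1 and Atp5g2 did not pass, with log2 fold changes of 0.40 and 0.02.

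Of the mitochondrial members, mt-Nd1, a membrane subunit of complex I at the ubiquinone site (mitochondrial genome, 2751 to 3707), was the 1 that passed. It had 546, 448 and 802 CPM in M1 NS and 1021, 902 and 1047 CPM in M0 NS, with no overlap, and fell by 0.73 on the log2 scale (SE 0.20, adjusted p = 0.00937). The neighbouring gene mt-Nd2 had 249, 127 and 381 CPM in M1 NS and 438, 385 and 414 CPM in M0 NS, at -0.71 ± 0.32 (SE, adjusted p = 0.0823), ranges that did not overlap but a change that was not called. mt-Co1, mt-Nd4, mt-Nd5 and mt-Nd6 overlapped between the groups, with log2 fold changes between -0.38 and 0.03. With a trend in transcript length and GC content removed, the edgeR test also called mt-Nd2 (-0.84, adjusted p = 0.00322), mt-Co1 (-0.41, adjusted p = 0.0195) and mt-Cytb (-0.63, adjusted p = 0.00765) lower. It did not call mt-Nd4, mt-Nd5 or mt-Nd6.

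**Figure D3:**
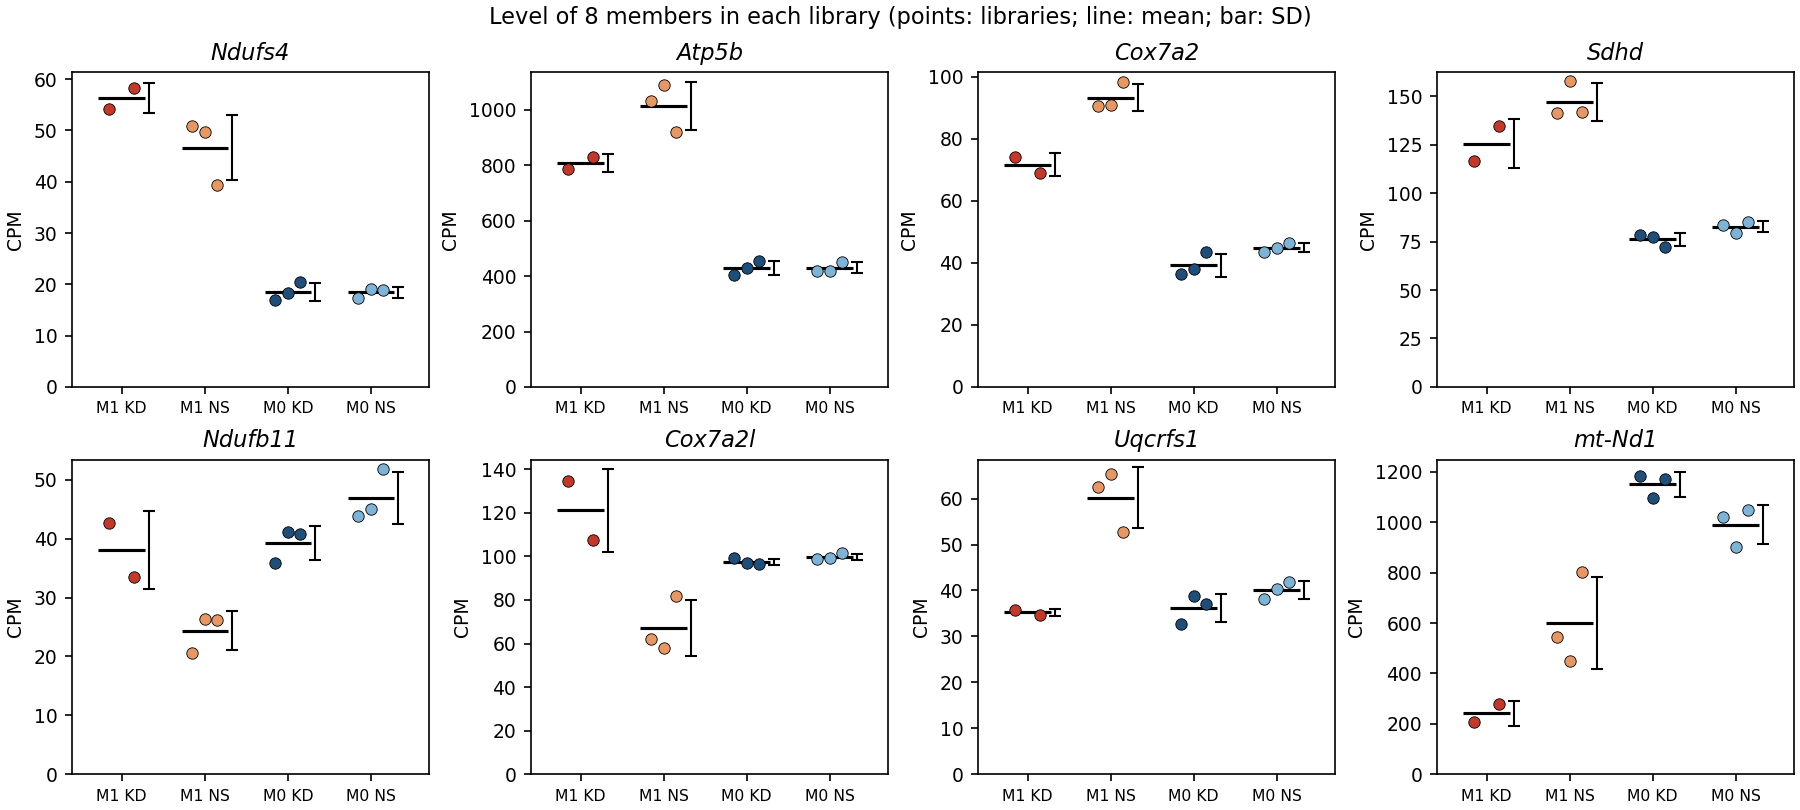
Level in CPM of 8 members in each library (points), with the group mean (line) and SD (bar). Ndufs4, Atp5b, Cox7a2 and Sdhd are higher in both M1 groups, Ndufb11 and Cox7a2l are lowest in M1 NS, Uqcrfs1 is highest in M1 NS, and mt-Nd1 is lowest in M1 KD.

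The second comparison asked how M1 cells given the MERRICAL gapmer differed from M1 cells given the NS gapmer. M1 KD shares no replicate number with M1 NS, so anything that goes with these numbers cannot be told apart from the gapmer. In M1 KD, 10 of 89 members rose and 6 fell against M1 NS, against 36.8% of all genes tested (17.6% higher and 19.2% lower). The nuclear members had 10 rises and 4 falls with a median log2 fold change of 0.15, and the mitochondrial members 0 rises and 2 falls with a median of 0.03, against 0.00 over all genes. For the 7 well counted mitochondrial genes the median was -0.53. The CPM ranges of M1 KD and M1 NS did not overlap for 31 of 89 members, 20 higher and 11 lower, against 52.4% of all genes (26.1% higher and 26.3% lower). Complexes I, II and IV held rises as well as falls. This comparison and the previous one share the M1 NS libraries, so a high or low M1 NS value enters both.

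Falls were led by mt-Nd1, with 206 and 277 CPM in M1 KD, against 546, 448 and 802 CPM in M1 NS. Both M1 KD libraries were below every other library of the study, and the log2 fold change of mt-Nd1 was -1.31 ± 0.24 (SE, adjusted p = 0.00131). For mt-Nd2 the M1 KD libraries had 83.3 and 161 CPM and the M1 NS libraries 249, 127 and 381 CPM, groups that overlapped. Its log2 fold change was -1.05 ± 0.37 (SE, adjusted p = 0.0446). That call was lost in 13 of 21 alternatives, 9 of them with 1 library left out, among these each single M0 library. Without M1 KD replicate 5 the value was -0.66 (adjusted p = 0.305) and without M1 NS replicate 4 -0.58 (adjusted p = 0.170). The other well counted mitochondrial genes did not pass. mt-Cytb had 545 and 751 CPM in M1 KD and 979.6, 773 and 1205 CPM in M1 NS, at -0.61 ± 0.23 (SE, adjusted p = 0.0530). mt-Co1 had 4355 and 5701 CPM in M1 KD and 4745, 3459.9 and 5142 CPM in M1 NS, at 0.18 ± 0.20 (SE, adjusted p = 0.520). The mitochondrial genes thus did not shift as one, with mt-Nd5 at -0.53 ± 0.30 (SE, adjusted p = 0.188), mt-Nd4 at 0.22 ± 0.33 (SE, adjusted p = 0.638) and mt-Nd6 at 0.42 ± 0.39 (SE, adjusted p = 0.428). mt-Nd6 is the 1 protein gene on the other strand and overlaps the end of mt-Nd5, and the sources used here do not say whether the counting used strand.

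Among nuclear members the largest called fall was that of Uqcrfs1 (chromosome 13, 30540308 to 30545362, minus strand), with 35.8 and 34.6 CPM in M1 KD and 62.5, 65.3 and 52.8 CPM in M1 NS. The nearest libraries were 17.0 CPM apart, the log2 fold change was -0.77 ± 0.13 (SE, adjusted p = 0.000882), and M1 KD lay near the 40.1 ± 1.90 CPM of M0 NS. It was the 1 complex III subunit of 8 that was called. In complex II the catalytic pair was called in opposite directions. Sdha had 208 and 163 CPM in M1 KD and 282, 296 and 228 CPM in M1 NS, at -0.53 ± 0.16 (SE, adjusted p = 0.0185), whereas Sdhb had 196 and 211 CPM in M1 KD and 152, 173 and 152 CPM in M1 NS, at 0.36 ± 0.13 (SE, adjusted p = 0.0453). The Sdha call was lost in 4 of 21 alternatives, with -0.37 (adjusted p = 0.147) without M1 KD replicate 6, and the Sdhb call in 13 of 21, with 0.18 (adjusted p = 0.247) after a trend in transcript length and GC content was removed. Ndufb3, a small accessory subunit of complex I, and Cox7a2 also fell, at -0.53 ± 0.18 (SE, adjusted p = 0.0339) and -0.38 ± 0.12 (SE, adjusted p = 0.0250), calls lost in 5 and 6 of 21 alternatives.

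Rises in complex I were those of 5 of 36 nuclear subunits, Ndufb11, Ndufv3, Ndufs3, Ndufb4 and Ndufv2. The calls of Ndufb4 and Ndufv2 were lost in 13 and 7 of 21 alternatives, those of Ndufs3 and Ndufv3 in 2 each. Ndufb11 had 42.7 and 33.5 CPM in M1 KD and 20.6, 26.4 and 26.1 CPM in M1 NS, at 0.65 ± 0.15 (SE, adjusted p = 0.00657). Without M1 KD replicate 5 its log2 fold change was 0.45 (adjusted p = 0.0953). In complex IV, Cox7a2l had 135 and 108 CPM in M1 KD and 62.2, 57.7 and 81.9 CPM in M1 NS, with no overlap, at 0.85 ± 0.15 (SE, adjusted p = 0.00134). The muscle form Cox7a1 rose too, at 1.07 ± 0.36 (SE, adjusted p = 0.0358), from counts of at most 83 per library, a call lost in 11 of 21 alternatives, with adjusted p = 0.197 without M1 KD replicate 5. The 1 rise in complex V was that of Atp5g2, with 83.9 and 75.9 CPM in M1 KD and 51.0, 69.0 and 47.7 CPM in M1 NS, at 0.52 ± 0.16 (SE, adjusted p = 0.0271). That call was lost in 5 of 21 alternatives, among them without M1 KD replicate 5 or 6.

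The largest rise of all, that of the muscle form Cox6a2 (chromosome 7, 128205435 to 128206387, minus strand), was mainly that of 1 library. Its counts were 440 and 73 in the M1 KD libraries, replicates 5 and 6, and 28, 21 and 55 in the M1 NS libraries. In CPM this is 12.1 and 2.67 in M1 KD and 0.784, 0.831 and 1.58 in M1 NS, at a log2 change of 2.79 ± 0.50 (SE, adjusted p = 0.00128). Without M1 KD replicate 5 the log2 fold change was 1.31, still past the threshold, with the lone M1 KD library assumed to vary like the other groups. The gene shares 70 bases of exon with Itgad, an integrin gene, whose own log2 fold change in this comparison was 0.43 (SE 0.65, adjusted p = 0.637).

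The number of calls in M1 KD depended on the libraries and the fit. It was 2 higher and 3 lower without M1 KD replicate 5, 18 higher without M1 NS replicate 2, 4 higher without M1 NS replicate 1 and 6 higher without M1 KD replicate 6. It was 4 higher and 2 lower when the M1 libraries were fitted alone, where 22.9% of 13565 genes were called (11.5% higher and 11.4% lower). It was 20 higher and 2 lower with upper-quartile factors, and 7 higher and 8 lower with totals alone. Falls of mt-Nd1 and Uqcrfs1 and the rises of Cox6a2 and Cox7a2l passed in all 21 alternatives run for them, which held for no other of the 16 called members.

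The third comparison asked the same in M0 cells. No member was called in M0 KD against M0 NS by edgeR, nor was any of the 15024 genes (0.0%). At an unadjusted p under 0.05 there were 24 of 89 members, 1 higher and 23 lower, and 1947 genes in all. DESeq2 called 1 member lower and 1.47% of all genes (0.779% higher and 0.692% lower). The log2 fold changes nonetheless separated by coding genome. Of 78 nuclear members 66 were below 0 with a median of -0.26, and all 11 mitochondrial members tested were above 0 with a median of 0.47, against 0.00 over all genes. The CPM ranges did not overlap for 46 nuclear members lower in M0 KD and 3 higher, and for 9 mitochondrial members higher, 58 of 89 in all against 35.1% of all genes tested (17.2% higher and 17.9% lower).

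Of the mitochondrial genes, mt-Nd2 had 603, 533 and 583 CPM in M0 KD and 438, 385 and 414 CPM in M0 NS, with every M0 KD library above every M0 NS library, at 0.47 ± 0.32 (SE, adjusted p = 0.518). mt-Nd4 had 608, 523 and 589.5 CPM in M0 KD and 434, 377 and 420.3 CPM in M0 NS, at 0.48 ± 0.30 (SE, adjusted p = 0.477). mt-Nd5 had 1592, 1387 and 1605 CPM in M0 KD and 1175, 1018 and 1199 CPM in M0 NS, at 0.43 ± 0.27 (SE, adjusted p = 0.474). mt-Cytb overlapped between the groups, at 0.17 ± 0.20 (SE, adjusted p = 0.703). When a trend in transcript length and GC content was removed from each library, the median of the mitochondrial members came to 0.11 and that of the nuclear members to -0.23, and the mt-Nd1, mt-Co1 and mt-Cytb values turned to -0.12, -0.05 and -0.13.

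The nuclear member with the smallest p was Ndufa7, an accessory subunit of complex I, with 21.6, 24.6 and 26.1 CPM in M0 KD and 38.2, 39.4 and 51.1 CPM in M0 NS, at -0.83 ± 0.19 (SE, adjusted p = 0.222). The nearest libraries of the groups were 12.2 CPM apart. The members with the smallest p in the other complexes were Cox6a1 in complex IV at -0.60 ± 0.20 (SE, adjusted p = 0.292), Uqcrb in complex III at -0.31 ± 0.11 (SE, adjusted p = 0.332), Atp5e in complex V at -0.43 ± 0.19 (SE, adjusted p = 0.367) and Sdhb in complex II at -0.19 ± 0.12 (SE, adjusted p = 0.468). A fit of the 6 M0 libraries alone, which estimates the spread without the M1 groups, called 8.06% of the 13683 genes it tested (3.98% higher and 4.08% lower) and 10 members. Those lower were Ndufa7, Cox6a1, Uqcr10, Ndufs8 and Ndufs3, with log2 fold changes between -0.83 and -0.31. Those higher were mt-Nd4l (2.34, from at most 20 counts per library), mt-Nd4, mt-Nd2, mt-Nd5 and mt-Nd6, between 0.43 and 0.49 apart from mt-Nd4l. The summed neutrophil and macrophage markers, given above, were lower in M0 KD than in M0 NS in every library, and their part in these values was not tested.

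**Figure D4:**
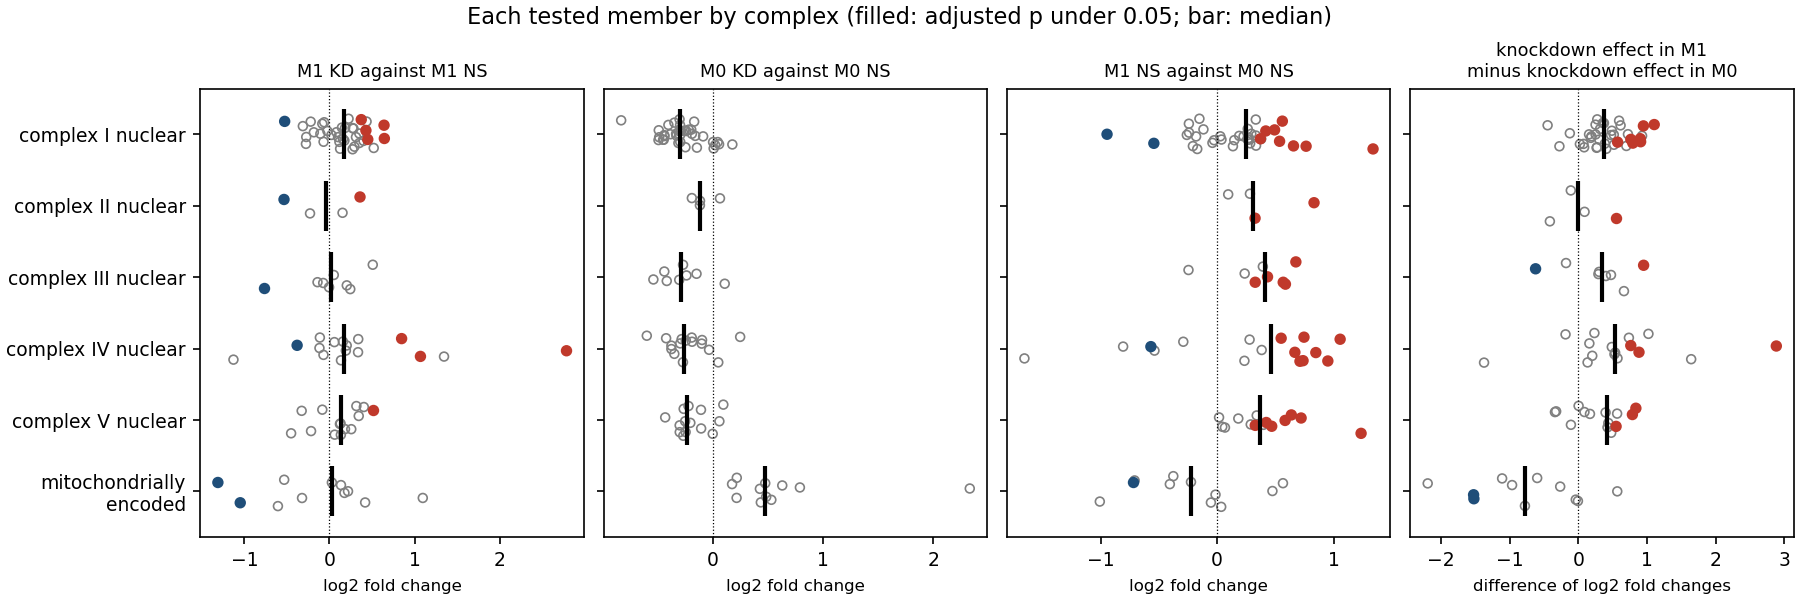
Log2 fold change of each of the 89 members tested, by complex and coding genome, in the 3 comparisons and for the difference of the knockdown effects. Filled points were called at an adjusted p under 0.05 (red higher, blue lower) and bars are medians; in M0 KD no point is filled, the nuclear medians are below 0 and the mitochondrial median is 0.47.

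Whether the gapmer acted differently in the states was tested as the M1 effect minus the M0 effect in the same fit. These comparisons use different libraries, 5 of M1 and 6 of M0. M1 KD shares no replicate number with the other groups, so anything that goes with the numbers cannot be told apart from the difference. The difference was called for 15 members above 0 and 3 below, 20.2% of 89, against 27.3% of all genes tested (13.1% above and 14.2% below). The median difference was 0.40 over the nuclear members and -0.78 over the mitochondrial ones, against -0.02 over all genes. Without M1 NS replicate 4 the mitochondrial median was -0.26, and after removal of the length and GC trend it was -0.43. All 15 called above 0 are nuclear, and of the 3 called below 0 both mt-Nd1 (-1.53 ± 0.31 (SE, adjusted p = 0.00418)) and mt-Nd2 (-1.52 ± 0.49 (SE, adjusted p = 0.0380)) are mitochondrial. The mt-Nd2 difference lost its call in 11 of 20 alternatives, at -1.13 (adjusted p = 0.165) without M1 KD replicate 5 and -1.06 (adjusted p = 0.0718) without M1 NS replicate 4.

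For mt-Nd1 the effects stood side by side at -1.31 (SE 0.24) in M1 and 0.22 (SE 0.20) in M0. For Uqcrfs1 they were -0.77 in M1 and -0.15 in M0, a difference of -0.62 ± 0.17 (SE, adjusted p = 0.0196). Ndufb11, Ndufv3 and Cox7a2l, which rose in M1 KD, had M0 effects of -0.26, -0.31 and -0.04, and differences of 0.90 ± 0.21 (SE, adjusted p = 0.00791), 0.95 ± 0.24 (SE, adjusted p = 0.0117) and 0.88 ± 0.21 (SE, adjusted p = 0.00906). Ndufa7 differed by 1.11 ± 0.28 (SE, adjusted p = 0.0138), although its M1 effect of 0.27 (SE 0.21) was not called. Likewise Uqcrq, a small subunit of complex III, had 118 and 111 CPM in M1 KD, 72.5, 107 and 62.3 CPM in M1 NS, 42.0, 43.9 and 49.5 CPM in M0 KD and 56.0, 56.8 and 71.1 CPM in M0 NS, a difference of 0.95 ± 0.27 (SE, adjusted p = 0.0214). Its M1 KD libraries were above every M1 NS library and its M0 KD libraries below every M0 NS library. Without M1 KD replicate 5 the count above 0 was 3, and without M1 NS replicate 2 it was 32. It was 6 without M1 NS replicate 1 or M0 KD replicate 1, 7 without M0 NS replicate 4 and 9 without M0 KD replicate 2.

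Genes that build and supply the chain were counted from lists that share no member with it, beside 26.9% of all genes tested that were called higher in M1 NS against M0 NS and 28.6% lower. In M1 NS against M0 NS, 20 of 27 genes of mitochondrial membranes and protein import rose and none fell, 74.1% called, with a median log2 fold change of 0.67. The largest rise was that of Timm10, a chaperone of the intermembrane space, with 20.9 ± 4.11 CPM in M1 NS and 7.10 ± 1.40 CPM in M0 NS, at 1.55 ± 0.18 (SE, adjusted p = 1.50e-05). Of 42 assembly factors 17 rose and 6 fell, which at 54.8% is close to the 55.5% of all genes, from Sco1, which delivers copper to complex IV, at 3.21 ± 0.28 (SE, adjusted p = 1.36e-06) to Nubpl, an iron-sulfur factor of complex I, at -1.58 ± 0.24 (SE, adjusted p = 0.000121). Of 21 genes of electron carriers and coupling 8 rose and 5 fell. Gpd2, which passes electrons of glycerol 3-phosphate to ubiquinone, had 436 ± 76.5 CPM in M1 NS and 42.8 ± 13.03 CPM in M0 NS, at 3.35 ± 0.23 (SE, adjusted p = 2.36e-07). Of 14 regulators of mitochondrial biogenesis and oxygen response 5 rose and 4 fell, among them Hif1a at 3.11 ± 0.27 (SE, adjusted p = 1.42e-06) and Pparg at -5.23 ± 0.25 (SE, adjusted p = 1.27e-08). Of 29 genes that copy, transcribe or translate the mitochondrial genome 7 rose and 2 fell, 31.0% and so below that share, with Slirp, which stabilises mitochondrial messenger RNA, at 1.42 ± 0.15 (SE, adjusted p = 6.74e-06). Of 6 tested genes of complexes III and V not caught by the naming rule, an ATP synthase inhibitor among them, 3 rose and 2 fell, the inhibitor Atpif1 at -1.06 ± 0.15 (SE, adjusted p = 6.91e-05).

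In M1 KD against M1 NS, which shares the M1 NS libraries with that comparison, 17.6% of all genes tested were called higher and 19.2% lower. None of the 27 import genes rose and 6 fell (22.2%), with Tomm5, of the outer membrane pore, at -0.97 ± 0.20 (SE, adjusted p = 0.00288). Of the 42 assembly factors 6 rose and 5 fell (26.2%), with Ndufaf1, needed to build the membrane arm of complex I, at 2.30 ± 0.156 CPM in M1 KD and 7.88 ± 1.95 CPM in M1 NS, -1.77 ± 0.22 (SE, adjusted p = 0.000135). Of the 29 genes of mitochondrial genome expression 2 rose and 7 fell (31.0%), so that each of these lists had a smaller share of calls than all genes (36.8%). Hsd17b10, a subunit of the mitochondrial RNase P, rose at 1.77 ± 0.23 (SE, adjusted p = 0.000150), while Mterf1b, a transcription termination factor gene at under 2 CPM in every group, had -2.97 ± 0.84 (SE, adjusted p = 0.0165). Of the 14 regulators 3 rose and 5 fell, 57.1% and so above the 36.8% of all genes. Among them Pprc1, a coactivator of nuclear respiratory factors, had 14.6 ± 0.826 CPM in M1 KD and 44.3 ± 5.59 CPM in M1 NS, at -1.60 ± 0.14 (SE, adjusted p = 1.61e-05). Of the 21 carriers 2 rose and 5 fell (33.3%), with Coq9 at 0.87 ± 0.18 (SE, adjusted p = 0.00346) and Pdss1 at -1.09 ± 0.29 (SE, adjusted p = 0.0116), both of ubiquinone synthesis. No gene of these lists was called in M0 KD against M0 NS, where list medians lay between -0.22 and 0.17.

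Since 30 nuclear members were called higher in M1 NS, the promoters of the nuclear members, called or not, were searched for short sequences. These were sequences known to bind NRF1, ETS proteins such as GABP, and YY1, all of which are known regulators of such genes. Promoters from 250 bases before to 50 after the start came from RefSeq (GRCm38.p6) and were found for 67 of the 84 nuclear members. On either strand, the 10-letter consensus of nuclear respiratory factor 1 (NRF1) was in 9 of 67, or 13.4%, against 2.56% of 27025 genes and 5.51% of the 10404 of these that were tested here. A wider form, with any base at the sixth letter, had been counted before this one was chosen, and it was in 16 of 67, or 23.9%, against 5.19% of all genes and 1140 of the 10404 tested. GCCATCTT (YY1) was in 14.9%, against 3.19% and 5.11%, and CCGGAAGT (ETS) in 7.46%, against 4.31% and 8.69%. The NRF1, YY1 and ETS strings do not contain one another. Of the 9 members with the NRF1 string 4 rose in M1 NS and none fell (median log2 fold change 0.33), and of the 56 tested members without it 21 rose and 3 fell (median 0.28). With the wider form, 5 of 16 rose and none fell (median 0.27), and of the 49 tested members without it 20 rose and 3 fell (median 0.29). A match is a description of letters and not of binding.

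The promoters of Ndufs4, Atp5b and Sdhd, with large rises in M1 NS, and of Ndufb11, with the largest fall of a nuclear member that passed, follow 5′ to 3′ on the gene's strand. Capitals mark the NRF1 string in Sdhd (chr9:50603800-50604099, minus strand) and the YY1 string, on the opposite strand, in Ndufs4 (chr13:114388045-114388344, minus strand). Atp5b (chr10:128083057-128083356, plus strand), which rose more than Sdhd, and Ndufb11 (chrX:20617570-20617869, minus strand) hold none of the 3.
Sdhd: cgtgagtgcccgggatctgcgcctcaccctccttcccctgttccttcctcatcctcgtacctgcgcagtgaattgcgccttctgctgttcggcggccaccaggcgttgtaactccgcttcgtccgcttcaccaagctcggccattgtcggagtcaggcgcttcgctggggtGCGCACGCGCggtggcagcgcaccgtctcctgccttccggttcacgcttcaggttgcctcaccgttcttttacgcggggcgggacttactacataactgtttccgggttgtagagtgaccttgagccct
Ndufs4: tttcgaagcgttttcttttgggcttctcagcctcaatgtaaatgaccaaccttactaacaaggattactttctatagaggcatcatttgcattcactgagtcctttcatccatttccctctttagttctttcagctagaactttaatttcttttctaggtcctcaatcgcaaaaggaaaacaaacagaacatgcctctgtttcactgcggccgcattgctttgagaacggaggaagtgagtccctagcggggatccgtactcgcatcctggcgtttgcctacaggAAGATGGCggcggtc
Atp5b: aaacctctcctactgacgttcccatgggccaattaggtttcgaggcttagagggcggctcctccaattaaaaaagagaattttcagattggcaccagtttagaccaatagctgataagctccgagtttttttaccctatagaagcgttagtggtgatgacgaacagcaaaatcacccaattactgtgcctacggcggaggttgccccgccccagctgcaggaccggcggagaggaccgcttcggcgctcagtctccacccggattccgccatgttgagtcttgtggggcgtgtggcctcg
Ndufb11: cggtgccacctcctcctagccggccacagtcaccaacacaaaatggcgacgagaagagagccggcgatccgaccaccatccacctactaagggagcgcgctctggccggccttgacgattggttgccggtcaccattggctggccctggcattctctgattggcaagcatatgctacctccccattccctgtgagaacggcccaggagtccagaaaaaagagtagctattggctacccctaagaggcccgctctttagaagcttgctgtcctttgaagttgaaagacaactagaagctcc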

How the data were processed

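The submitters' processing notes list the build GRCm38 and the tools featureCounts, Subread 1.5.2, STAR 2.5.2b and Trimmomatic 0.36. The authors deposited raw counts per gene for 11 libraries, which were used as deposited, and 1 entry with a blank name (at most 0.000305% of a library's counts) was left out. The members and lists were chosen with earlier results of these data known. A deposited table of normalized values was not used.

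Genes were kept by filterByExpr over the 4 groups (minimum count 10, minimum total 15), which left 15024, and scaled with TMM factors. All 11 libraries entered one edgeR 4.0.16 quasi-likelihood fit (R 4.3.3, robust option) with a coefficient per group, tested on simulated data first. P-values were adjusted by Benjamini-Hochberg over all genes tested and called under 0.05. Each SE is that of the log2 fold change. CPM is given per library or as mean ± SD. Copies of transcripts were sought with BLAST among GENCODE M21 transcripts, and exon length and coordinates came from that annotation. No libraries of a group were duplicates, since counts differed by a chi-square of at least 13.7 per gene. Nuclear members and list genes are named where they had the largest called rise or fall, or the smallest p where none was called, and members are also named as alternative forms or for a called difference. Ndufs3, Ndufs7, Ndufs8, Ndufv2, Ndufb4, Atp5a1, Cox5a, Cox5b, Sdhc and the members called in the M0 libraries alone were named after their values were seen where that rule does not reach them. Alternatives were other scaling factors and filters, DESeq2 1.42.0, limma-voom (limma 3.58.1), fits of fewer libraries, a trend correction and a replicate block.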

Additional observations from a re-analysis of the deposited data

Results flagged for a closer look

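In 18 members the effect of the gapmer in M1 cells differed from that in M0 cells, by the interaction term of the edgeR fit at an adjusted p under 0.05. The values below are M1 effect minus M0 effect on the log2 scale. Below 0 were mt-Nd1 (-1.53), mt-Nd2 (-1.52) and Uqcrfs1 (-0.62). Above 0 in complex I were Ndufb9 (0.57), Ndufs3 (0.76), Ndufa13 (0.79), Ndufb11 (0.90), Ndufa1 (0.91), Ndufv3 (0.95) and Ndufa7 (1.11). In complex II it was Sdhb (0.55) and in complex III Uqcrq (0.95). In complex IV they were Cox4i1 (0.76), Cox7a2l (0.88) and Cox6a2 (2.89), the last resting mainly on M1 KD replicate 5, without which it was 1.41 (adjusted p = 0.0750). In complex V they were Atp5h (0.55), Atp5g2 (0.79) and Atp5e (0.84). Over 20 alternatives, the call of mt-Nd1, Ndufs3, Ndufb11 and Cox7a2l was kept in all. It was lost in 12 for Ndufb9, 11 for mt-Nd2 (-1.13, adjusted p = 0.165, without M1 KD replicate 5), 11 for Cox4i1 (0.29, adjusted p = 0.301, with a trend in length and GC content removed), 11 for Sdhb (0.25, adjusted p = 0.264, with the trend removed), 10 each for Atp5e and Atp5h, 7 each for Ndufa1 and Ndufa13, 5 for Uqcrfs1, 4 for Uqcrq, 4 for Atp5g2 (0.22, adjusted p = 0.255, with the trend removed), and 1 each for Ndufa7, Ndufv3 and Cox6a2. No explanation of these differences was tested, and M1 KD shares no replicate number with the other groups.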

How the results depend on the processing

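M1 KD had 2 libraries, and no alternative thinned or matched the depth of libraries. With 10 members higher and 6 lower in M1 KD against M1 NS, the counts were 20 and 2 with upper-quartile factors, 6 and 13 with a trend in length and GC content removed, and 4 and 2 with only the groups compared. Leaving out each library in turn gave 2 to 18 higher and 3 to 8 lower. In M0 KD against M0 NS, with 0 calls, only the groups compared gave 5 higher and 5 lower, no filter gave 3 lower and DESeq2 1 lower, and each library left out gave 0. In M1 NS against M0 NS, with 30 higher and 4 lower, library size only gave 5 and 21, upper-quartile factors 11 lower and the trend removed 8 lower, and each library left out gave 21 to 36 higher and 3 to 6 lower. For the difference of effects, with 15 above 0 and 3 below, upper-quartile factors gave 23 and 1, library size only 8 above, the trend removed 5 below and DESeq2 5 below, and each library left out gave 3 to 32 above and 1 to 6 below. Why these counts moved was not tested. With each library left out the mitochondrial median lay between -0.86 (without M1 KD replicate 6) and 0.51 (without M1 NS replicate 4) in M1 KD, between -0.57 and -0.05 in M1 NS, between 0.40 and 0.52 in M0 KD and between -1.03 and -0.26 for the difference of effects, and the nuclear median between 0.07 and 0.28 in M1 KD, 0.17 and 0.39 in M1 NS, -0.30 and -0.15 in M0 KD (-0.15 without M0 NS replicate 4) and 0.29 and 0.53 for the difference. Calls were kept in every alternative by 4 of 16 members in M1 KD, 8 of 34 in M1 NS (24 with each library left out) and 4 of 18 for the difference. List genes, picked as the largest called rise or fall of a list, kept theirs more often, in 10 of 17, 19 of 20 and 10 of 15. The counts that follow pool both kinds and so overstate how well the members' calls held. Over 120 called values of members and list genes, 2541 alternatives gave 2224 that kept direction and side of the threshold, 313 that kept direction only and 4 that reversed, all in M1 NS with library size only, which were Atp5c1 (-0.055), Ndufv2 (-0.016), Sdhc (-0.066) and Uqcrb (-0.060). Same-numbered libraries of M0 KD and M0 NS deviated together with r = 0.135, 0.0221 and 0.124, differently numbered ones with r between -0.133 and 0.0323. For M1 NS and M0 NS these were 0.0899, -0.0752 and -0.0825, and between -0.142 and 0.173. The main fit did not pair libraries by number. Replicate 4 stood apart from replicates 1 and 2, by a chi-square per gene of 49.7 and 65.4 in M0 NS (13.7 between 1 and 2), 47.3 and 49.0 in M0 KD (17.1) and 134 and 150 in M1 NS (53.1). What replicate 4 shares across groups was not tested. With the number as a replicate block over 9 libraries, 0 members were called in M0 KD, and 34 higher and 6 lower in M1 NS. M1 KD shares no number with the other groups, so its comparison and the difference had no replicate block. In both, anything that goes with the numbers cannot be told apart from the gapmer.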
